A study of Homo sapiens with 8 samples.

Results

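The genes of cholesterol and fatty acid synthesis, with their regulators and associated sterol transport genes, were examined in LNCaP cells transfected with an siRNA against GATA2. The 34 genes were taken from a list of genes of the sterol regulatory element-binding protein (SREBP) pathway and found through the RefSeq accession of their array probes. All 34 were among the 28850 genes tested, and the probe used was well above background on all 8 arrays for each of them. The list was divided into a sterol branch of 18 genes, a fatty acid branch of 9, 5 regulators and 2 transport genes.

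LNCaP is a line of human prostate cancer cells that was derived from a lymph node metastasis and expresses the androgen receptor. Cells in medium with fetal bovine serum were transfected with 30 nM siGATA2 or with 30 nM of a scrambled siRNA (siControl), and total RNA was taken 72 h later. Each group held 4 arrays, which the labels describe as replicates of 1 cell line. The methods list 1 siRNA product against GATA2, so the cell line and the siRNA were not varied. GATA2 is a zinc-finger transcription factor that acts with the androgen receptor in prostate cells, and the comparison was made to find genes that change when it is silenced.

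SREBPs are transcription factors held in the endoplasmic reticulum membrane. When membrane sterol is low, SCAP escorts them to the Golgi, where proteases release the active part. INSIG proteins hold SCAP back when sterol is plentiful. SREBF2 mainly drives genes of cholesterol synthesis, SREBF1 those of fatty acid synthesis. Prostate epithelium is known for high lipid synthesis, and androgens raise lipogenic genes in LNCaP cells through this system.

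Values below are log2 of the processed Agilent signal after quantile normalization, each log2 fold change subtracts the siControl mean from the siGATA2 mean, and SE is its standard error. Genes were called at an adjusted p under 0.05 from limma, with Benjamini-Hochberg adjustment over all 28850 genes. The probe of GATA2 itself was not lower on the arrays labelled siGATA2, at 11.40 to 12.61 against 11.10 to 11.74 on the arrays labelled siControl, a log2 fold change of 0.68 (SE 0.312, adjusted p = 0.154 from limma). The two-sided exact permutation p was 0.143, where the smallest value possible with 4 against 4 arrays is 0.0286. Every direction below therefore rests on the labels of the arrays. Among other reference genes, MYC was lower, at -2.75 on the log2 scale (limma, adjusted p = 1.32e-05), and the androgen receptor targets KLK2, KLK3 and FKBP5 were lower, at -1.84, -1.63 and -1.52, while TMPRSS2 was not called, at -0.13 (adjusted p = 0.665 from limma). All 7 luminal prostate markers were well above background on all 8 arrays. So were COL1A1 of fibroblasts, PTPRC and CD14 of immune cells, and VWF and CDH5 of endothelium. KRT5 of basal epithelium and LUM of fibroblasts were so on none, and the other markers of these 4 cell types on some arrays. The summed linear signal of the luminal markers was 277000 to 441000 on the siGATA2 arrays and 375000 to 488000 on the siControl arrays, that of the 4 fibroblast markers 414 to 834 against 549 to 971, that of the 3 basal markers 25.9 to 36.2 against 31.8 to 105, that of the 3 immune markers 743 to 825 against 520 to 618, and that of the 3 endothelial markers 778 to 1010 against 1150 to 1420. The labels name LNCaP cells as the only source of every sample, so these signals do not show that other cell types were present. The part of these markers in the results was not tested. In bulk RNA, fewer cells that express a gene and less of its RNA per cell cannot be told apart. Between 34459 and 37033 probes were well above background on the siGATA2 arrays and between 24438 and 34895 on the siControl arrays, with the lowest numbers on siControl arrays 3 and 1.

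The pathway did not move in 1 direction. Of the 34 genes, 8 were lower on the siGATA2 arrays (23.5%), 8 were higher (23.5%) and 18 did not pass the test, while of all genes tested 14.2% were lower and 12.3% higher. At least 2-fold changes were seen in 2 lower genes, ABCA1 and SREBF2, and in 3 higher genes, TM7SF2, ACSS2 and INSIG1. Among all genes 7.13% were lower and 4.52% higher by that much. The 2 groups did not overlap, with all 4 siGATA2 values below or above all 4 siControl values, in 9 genes that were lower (26.5%) and 10 that were higher (29.4%), against 16.5% and 16.2% of all genes. The median log2 fold change was 0.19 for the 34 genes and 0.09 for all genes.

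**Figure D1:**
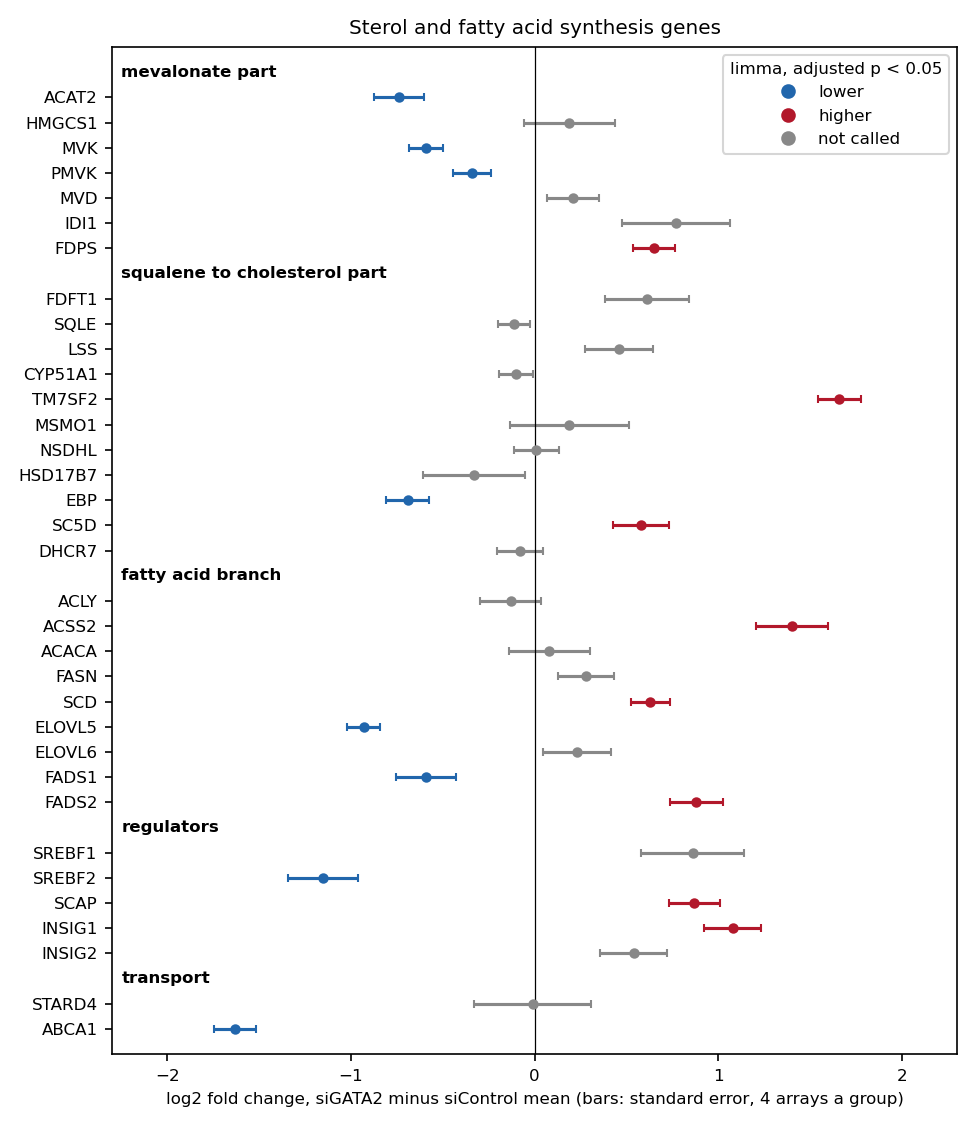
Log2 fold change (x axis, siGATA2 minus siControl mean) of the 34 genes (y axis, in order of role), with the standard error from limma as bars and colour for the call at an adjusted p under 0.05. Blue and red points stand in each branch of synthesis and among the regulators, with 8 genes lower and 8 higher.

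The regulators moved in opposite directions. SREBF2, which encodes SREBP-2, was lower by 2.22-fold, at 11.67, 11.77, 11.04 and 11.05 on siGATA2 arrays 1 to 4 and at 12.52, 12.52, 12.54 and 12.55 on siControl arrays 1 to 4. The 4 siControl values lay within a span far smaller than the gap to the nearest siGATA2 array, and the log2 fold change was -1.15 (SE 0.19, adjusted p = 0.00306 from limma). The gene of its escort protein moved the other way. SCAP was 14.02, 14.07, 13.77 and 13.65 on the siGATA2 arrays against 13.24, 12.92, 12.89 and 12.98, a log2 fold change of 0.87 (SE 0.139, adjusted p = 0.00257 from limma). INSIG1, a retention protein that is itself a target of SREBPs, was higher by 2.11-fold. Its signal was 14.10, 14.09, 14.52 and 14.64 on the siGATA2 arrays and 13.14, 13.37, 13.27 and 13.26 on the siControl arrays, with a log2 fold change of 1.08 (SE 0.155, adjusted p = 0.00153 from limma).

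The other SREBP gene, SREBF1, was 17.94, 17.82, 16.99 and 17.04 on the siGATA2 arrays and 17.11, 16.39, 16.43 and 16.41 on the siControl arrays. Its groups overlapped because siControl array 1 was above the 2 lower siGATA2 arrays, and its log2 fold change of 0.86 missed the threshold (SE 0.28, adjusted p = 0.0566 from limma). SREBF1 was called higher in 10 of 24 other settings, among them leaving out siControl array 1, and not called in the other 14. A dimmer SREBF1 probe gave 0.25 (adjusted p = 0.0896 from limma). INSIG2, the second retention protein, had a log2 fold change of 0.54 (SE 0.181, adjusted p = 0.0633 from limma), although its 4 siGATA2 values, 11.17 to 11.44, lay above its siControl values of 10.36 to 11.06. Its second probe gave 0.53 with an adjusted p of 0.0274. Of 5 regulators, 1 was lower (20%), 2 were higher (40%) and 2 did not pass the test, against 14.2% and 12.3% of all genes.

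**Figure D2:**
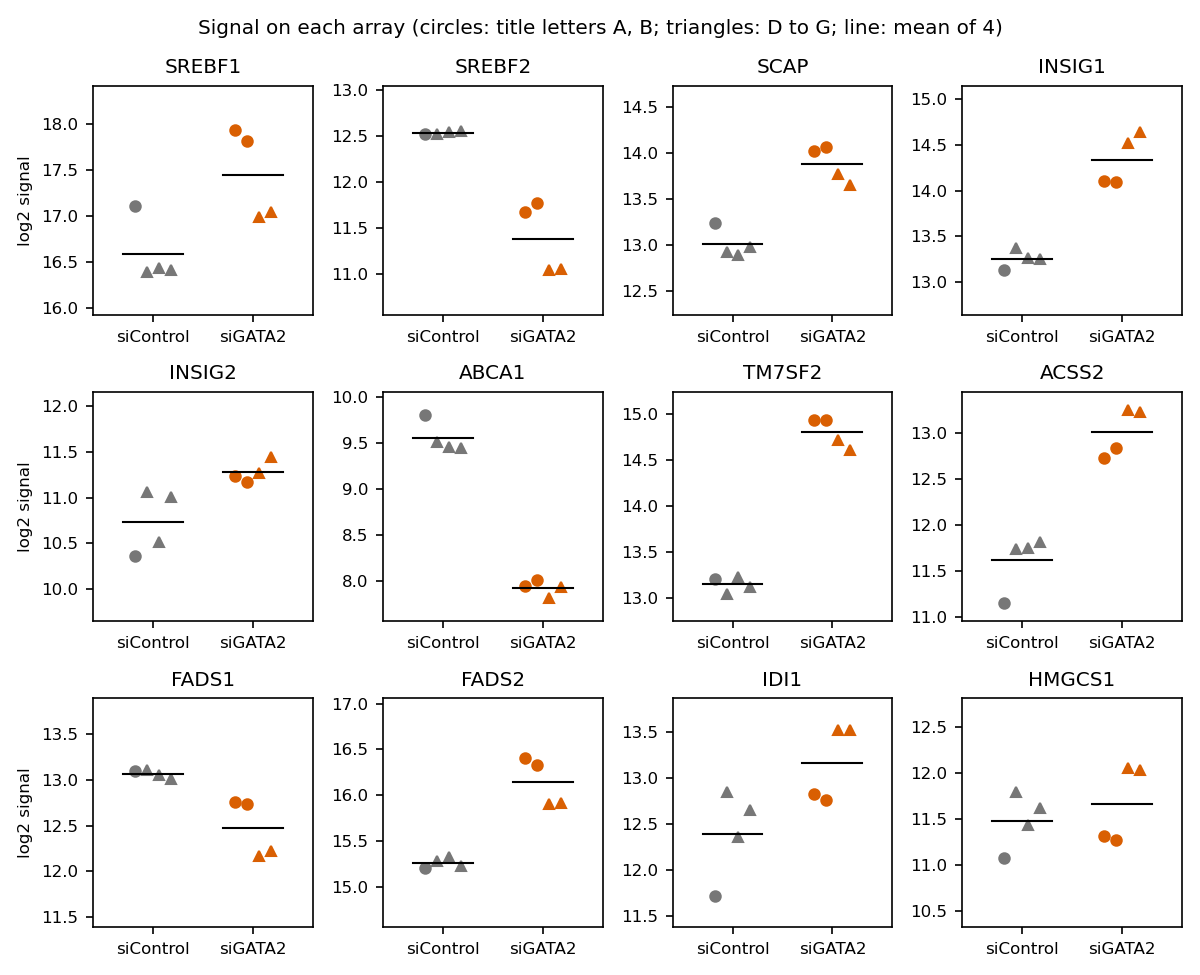
Log2 signal (y axes, each spanning 2.5 log2 units) on each array for 12 genes, by label (x axes), with the group mean as a line. Circles are arrays with the title letters A and B, triangles those with D to G. The siGATA2 values of SREBF2, FADS1 and ABCA1 lie below all siControl values, and those of SCAP, INSIG1, INSIG2, TM7SF2, ACSS2 and FADS2 above them.

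Both transport genes act on cellular cholesterol, by export or by movement between membranes. ABCA1, the exporter that loads cholesterol onto apolipoprotein A-I, was lower by 3.1-fold, the largest fall of the 34 genes. It was 7.94, 8.01, 7.81 and 7.93 on the siGATA2 arrays and 9.80, 9.51, 9.46 and 9.45 on the siControl arrays, with no overlap and a log2 fold change of -1.63 (SE 0.116, adjusted p = 5.29e-05 from limma). A dimmer ABCA1 probe, at a mean of 6.54, gave -0.21 (adjusted p = 0.293 from limma). STARD4, a carrier that moves cholesterol between membranes, had a log2 fold change of -0.01 (SE 0.317), with a range of 8.63 to 9.54 on the siGATA2 arrays inside that of 8.31 to 9.61 on the siControl arrays.

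Stretches upstream of the start are shown for the 5 genes that changed at least 2-fold and for FDPS, whose window held several CCAAT boxes, since a sterol response element, an E-box form of it and the CCAAT box of NF-Y are the motifs through which SREBPs and NF-Y act on this pathway. The windows are the 250 bases before the annotated RefSeq start on GRCh38.p14, read in the direction of the gene. For ACSS2 the start with the most motif matches was chosen, and its other start held no match. They lie at chr22:41832855-41833104 for SREBF2, chr7:155297628-155297877 for INSIG1, chr11:65111622-65111871 for TM7SF2, chr20:34874739-34874988 for ACSS2, at 1 of its 2 starts, and chr1:155308616-155308865 for FDPS, all on the plus strand, and at chr9:104928156-104928405 for ABCA1, on the minus strand. Capitals mark matches to TCACNCCAC, to TCACNTGA and to CCAAT on either strand, where ATTGG is CCAAT on the opposite strand.
SREBF2: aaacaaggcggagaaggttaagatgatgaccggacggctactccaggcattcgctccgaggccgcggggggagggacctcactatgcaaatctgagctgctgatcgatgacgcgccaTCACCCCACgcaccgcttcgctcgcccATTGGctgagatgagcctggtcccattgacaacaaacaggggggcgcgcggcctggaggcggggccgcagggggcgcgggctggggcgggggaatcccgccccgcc
INSIG1: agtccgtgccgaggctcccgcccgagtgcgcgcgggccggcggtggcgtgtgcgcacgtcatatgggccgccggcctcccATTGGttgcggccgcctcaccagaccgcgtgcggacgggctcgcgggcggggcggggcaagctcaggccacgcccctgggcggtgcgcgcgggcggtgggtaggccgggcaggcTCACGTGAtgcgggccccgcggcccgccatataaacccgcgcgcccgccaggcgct
TM7SF2: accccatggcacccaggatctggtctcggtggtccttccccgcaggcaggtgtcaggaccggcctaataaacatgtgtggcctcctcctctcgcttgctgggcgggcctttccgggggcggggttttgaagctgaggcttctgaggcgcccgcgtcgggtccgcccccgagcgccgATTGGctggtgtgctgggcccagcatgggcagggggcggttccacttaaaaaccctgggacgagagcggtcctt
ACSS2: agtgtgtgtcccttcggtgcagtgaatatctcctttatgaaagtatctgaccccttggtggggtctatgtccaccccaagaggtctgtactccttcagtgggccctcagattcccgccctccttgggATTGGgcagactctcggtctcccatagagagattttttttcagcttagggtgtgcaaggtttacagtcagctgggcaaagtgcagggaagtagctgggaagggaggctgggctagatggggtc
FDPS: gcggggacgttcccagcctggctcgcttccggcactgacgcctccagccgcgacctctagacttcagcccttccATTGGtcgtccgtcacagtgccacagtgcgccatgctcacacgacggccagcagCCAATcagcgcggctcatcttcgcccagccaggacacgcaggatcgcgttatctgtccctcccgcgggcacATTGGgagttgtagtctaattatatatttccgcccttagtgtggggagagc
ABCA1: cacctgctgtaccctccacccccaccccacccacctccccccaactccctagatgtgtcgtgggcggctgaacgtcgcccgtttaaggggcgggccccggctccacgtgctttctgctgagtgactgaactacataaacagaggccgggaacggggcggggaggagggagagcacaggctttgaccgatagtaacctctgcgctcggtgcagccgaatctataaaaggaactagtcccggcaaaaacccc
The window of SREBF2 held a sterol element beside a CCAAT box, that of INSIG1 the E-box form, and that of FDPS 3 CCAAT boxes, while the window of ABCA1 held none of these letters. RefSeq windows were found for 30 of the 34 genes, 9 of which had several starts, and not for ACAT2, SQLE, FDFT1 and FASN. With any start counted, TCACNCCAC stood in 1 of the 30 genes (3.33%) and in 1.09% of 27305 genes with a window, and TCACNTGA in 2 (6.67%) and 3.97%. CCAAT stood in 21 of the 30 (70.0%) and in 37.0% of all, and it was found in 13 of the 15 sterol branch genes with a window and 5 of the 8 fatty acid branch genes. It stood in 4 of the 7 genes that were lower, 6 of the 8 that were higher and 11 of the 15 that did not pass the test. GATAA, the core that GATA factors bind, stood in 6 genes (20%) against 24.2% of all. Both strands were searched, and neither TCACNCCAC nor TCACNTGA contains CCAAT or GATAA. A match describes the letters of the window only.

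In the sterol branch, 4 genes were lower (22.2%), 3 higher (16.7%) and 11 did not pass the test, against 14.2% and 12.3% of all genes. The median log2 fold change was 0.10 for the branch and 0.09 for all genes. The 7 early enzymes of the branch, which build the isoprenoid precursors of sterols, held 3 of the 4 lower genes. Of these 7, 42.9% were lower and 14.3% higher, and their median log2 fold change was 0.19. ACAT2, a thiolase that joins acetyl units at the first step, was 12.40, 12.32, 12.66 and 12.73 on the siGATA2 arrays and 13.05, 13.31, 13.40 and 13.30 on the siControl arrays, a log2 fold change of -0.74 (SE 0.136, adjusted p = 0.00522 from limma). MVK, mevalonate kinase, was 12.99, 12.90, 12.85 and 12.95 against 13.60, 13.50, 13.46 and 13.50, a log2 fold change of -0.59 (SE 0.0911, adjusted p = 0.00214 from limma). Both genes were separated from the siControl arrays on every siGATA2 array. PMVK, the kinase of the next step, had a log2 fold change of -0.34 (SE 0.105, adjusted p = 0.0485 from limma), at 13.35 to 13.56 against 13.65 to 13.90, and its call was lost in 13 of 24 other settings.

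Of the later genes of these steps, 1 was higher. FDPS, which makes farnesyl diphosphate and has processed pseudogenes that could share its signal, was 15.60, 15.60, 15.86 and 15.90 on the siGATA2 arrays and 14.96, 15.14, 15.15 and 15.13 on the siControl arrays, a log2 fold change of 0.65 (SE 0.115, adjusted p = 0.00444 from limma). With 75th percentile scaling it was 0.50 and not called (adjusted p = 0.0733 from limma). IDI1, the isomerase just before it, had a larger log2 fold change of 0.77, with an SE of 0.296 and an adjusted p of 0.0969. Its values were 12.83, 12.76, 13.53 and 13.53 against 11.72, 12.85, 12.36 and 12.65, and siControl array 2 was above the 2 lower siGATA2 arrays. HMGCS1, the synthase whose product is the substrate for mevalonate formation, had a log2 fold change of 0.19 (SE 0.246), and MVD, the decarboxylase, one of 0.21 (SE 0.143), neither of which passed the test.

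From squalene to cholesterol, 1 gene was lower (9.09%), 2 were higher (18.2%) and 8 did not pass the test, against 14.2% and 12.3% of all genes. TM7SF2, a sterol C14 reductase, had the largest rise of the 34 genes, 3.15-fold. It was 14.94, 14.94, 14.72 and 14.61 on the siGATA2 arrays and 13.20, 13.04, 13.22 and 13.12 on the siControl arrays, a log2 fold change of 1.66 (SE 0.115, adjusted p = 4.88e-05 from limma). SC5D, the desaturase of the B ring, was 8.38, 8.33, 8.44 and 8.43 against 7.45, 8.10, 7.75 and 7.96, a log2 fold change of 0.58 (SE 0.151, adjusted p = 0.0247 from limma). Its siGATA2 values were nearly level, while its siControl values spread over a wider range, and its call was lost in 10 of 24 other settings, among them leaving out any 1 siGATA2 array. EBP, the isomerase that acts on the double bond of the B ring before SC5D, was lower. It was 14.57, 14.52, 14.29 and 14.42 against 14.93, 15.21, 15.20 and 15.23, a log2 fold change of -0.69 (SE 0.117, adjusted p = 0.00344 from limma).

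The other 8 enzymes of these steps were not called. SQLE, the epoxidase, had a log2 fold change of -0.11 (SE 0.0875), with 12.58 to 12.63 on the siGATA2 arrays just below 12.66 to 12.79 on the siControl arrays, CYP51A1, the lanosterol demethylase, one of -0.10 (SE 0.0933), NSDHL, a decarboxylating dehydrogenase, one of 0.01 (SE 0.122) and DHCR7, a late reductase, one of -0.08 (SE 0.125). FDFT1, squalene synthase, was at 14.97 to 15.38 on the siGATA2 arrays and at 13.93 to 14.86 on the siControl arrays, without overlap, but its log2 fold change of 0.61 missed the threshold (SE 0.229, adjusted p = 0.0894 from limma). LSS, lanosterol synthase, had 0.46 (SE 0.187, adjusted p = 0.109 from limma) by its brightest probe and 1.05 (adjusted p = 0.000652 from limma) by a dimmer one. MSMO1, the methyl sterol oxidase, had 0.19 (SE 0.324), and HSD17B7, a keto-steroid reductase with a near-identical pseudogene, had -0.33 (SE 0.279). For HSD17B7 the siControl value of array 1 was 9.85 and those of the other arrays 11.04 to 11.10, and the siGATA2 range of 10.37 to 10.53 lay between them. Without siControl array 1 its log2 fold change was -0.63 and it was called lower (adjusted p = 0.00222 from limma), as it was in 4 further settings.

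In the fatty acid branch, 2 genes were lower (22.2%), 3 higher (33.3%) and 4 did not pass the test, against 14.2% and 12.3% of all genes. The median log2 fold change was 0.23 for the branch and 0.09 for all genes. ACSS2, which makes acetyl-CoA from acetate, was higher by 2.64-fold, at 12.73, 12.84, 13.25 and 13.23 on the siGATA2 arrays and 11.15, 11.74, 11.75 and 11.82 on the siControl arrays, a log2 fold change of 1.40 (SE 0.196, adjusted p = 0.00136 from limma). ACLY, which makes acetyl-CoA from citrate, had a log2 fold change of -0.13 (SE 0.165). ACACA, acetyl-CoA carboxylase, had 0.08 (SE 0.22) and FASN, fatty acid synthase, 0.28 (SE 0.154, adjusted p = 0.225 from limma), so the enzymes that build palmitate were not called.

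Of the 5 enzymes that modify fatty acids, 2 were lower, 2 were higher and ELOVL6 was not called, where 14.2% of all genes were lower and 12.3% higher. SCD, the desaturase that makes oleate, was 13.17, 13.15, 13.06 and 12.96 on the siGATA2 arrays and 12.44, 12.56, 12.30 and 12.54 on the siControl arrays, a log2 fold change of 0.63 (SE 0.106, adjusted p = 0.00353 from limma). ELOVL5, an elongase of polyunsaturated fatty acids, was 12.29, 12.24, 12.21 and 12.19 against 13.10, 13.25, 13.10 and 13.19, a log2 fold change of -0.93 (SE 0.0903, adjusted p = 0.000219 from limma), and its dimmer probe gave -1.91. ELOVL6, which elongates palmitate, had 0.23 (SE 0.186).

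The neighbouring desaturase genes FADS1 and FADS2 went opposite ways. FADS2, the delta-6 desaturase, was 16.41, 16.33, 15.90 and 15.92 on the siGATA2 arrays and 15.21, 15.28, 15.33 and 15.23 on the siControl arrays, a log2 fold change of 0.88 (SE 0.144, adjusted p = 0.00297 from limma). FADS1, the delta-5 desaturase, was 12.76, 12.74, 12.17 and 12.22 against 13.09, 13.11, 13.05 and 13.01, a log2 fold change of -0.59 (SE 0.164, adjusted p = 0.031 from limma). Both genes were lower on siGATA2 arrays 3 and 4 than on siGATA2 arrays 1 and 2, and the call of FADS1 was lost in 9 of 24 other settings.

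Of the 34 genes of the pathway outside this list, 33 were tested. Of these, 13 were lower (39.4%), 6 higher (18.2%) and 14 did not pass the test, against 14.2% and 12.3% of all genes. The median log2 fold change was -0.11 for these genes and 0.09 for all genes. The largest changes, on the log2 scale, were rises of NPC1, which exports cholesterol from lysosomes, by 2.80 (SE 0.28, adjusted p = 0.000246 from limma), and of LPIN1, a phosphatidate phosphatase, by 2.49 (SE 0.159, adjusted p = 3.47e-05 from limma). FADS3, a desaturase-like neighbour of FADS1 and FADS2, followed with 1.18 (SE 0.119, adjusted p = 0.000253 from limma). The largest falls were those of TMEM97, which binds NPC1, at -1.85 (SE 0.192, adjusted p = 0.000289 from limma), of ELOVL2 at -1.66 (SE 0.344, adjusted p = 0.00909 from limma) and of ELOVL7 at -1.16 (SE 0.109, adjusted p = 0.000178 from limma), both elongases. The probe of ELOVL2 was well above background on 3 of 4 siGATA2 and 2 of 4 siControl arrays.

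Some related genes had opposite signs, pairs that were noticed after their values were seen and for which no test of the opposition was made. LBR, the other sterol C14 reductase, had a log2 fold change of -0.86 (SE 0.104, adjusted p = 0.000609 from limma), where TM7SF2 had 1.66. NPC2, which hands cholesterol to NPC1, had -0.97 (SE 0.0899, adjusted p = 0.000175 from limma). ABCG1, an exporter of cholesterol to mature lipoprotein particles, had 0.78 (SE 0.134, adjusted p = 0.00369 from limma), where ABCA1 had -1.63. SCD5, the second stearoyl-CoA desaturase, had -0.94 (SE 0.137, adjusted p = 0.0016 from limma), where SCD had 0.63. Subunits of NF-Y and SP1, which bind beside SREBPs, were lower for NFYA, at -0.56 (SE 0.0927, adjusted p = 0.00306 from limma), NFYC, at -0.38, and SP1, at -0.36, and NFYB, at -0.30, was not called. The calls of NFYA, NFYC and SP1 were lost in 2, 12 and 15 of 24 other settings. With the mean over the probes of a gene in place of its brightest probe, NFYA was at -0.11 and not called (adjusted p = 0.459 from limma).

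**Figure D3:**
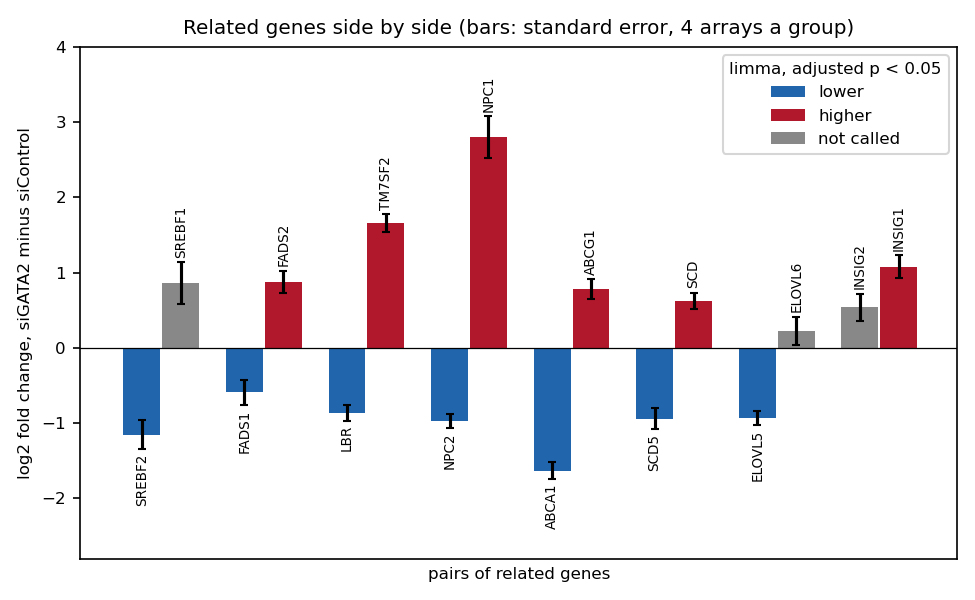
Log2 fold change (y axis, siGATA2 minus siControl mean) of 8 pairs of related genes side by side (x axis), with the standard error from limma as bars and colour for the call. In the SREBF, FADS, NPC, SCD, ELOVL and ABC pairs and for TM7SF2 and LBR, the left bar is below 0 and the right bar above it, while INSIG1 and INSIG2 both lie above 0.

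The titles of the samples carry a letter, A and B for siGATA2 arrays 1 and 2 and siControl array 1, and D to G for the other 5 arrays, whose meaning the labels do not state. Sets of letters were compared after the data were seen. Within the A and B set and within the D to G set, 29 of the 34 genes differed with the same sign. For the 19 genes whose groups did not overlap, which include all 16 called genes, this had to be so, and of the other 15 it held for 10. The exceptions were NSDHL, HSD17B7, DHCR7, ACLY and ACACA. Within the siGATA2 arrays, HMGCS1, IDI1, STARD4 and MSMO1 were higher in the D to G set by at least 0.5, by 0.75, 0.74, 0.62 and 0.52, and within the siControl arrays by 0.54, 0.90, 1.05 and 1.26. The 6 genes that were lower in the D to G siGATA2 arrays by at least 0.5 were SREBF1, ACACA, SREBF2, LSS, FADS1 and FASN. In the siControl arrays, with array 1 alone in the A and B set, the same difference was -0.70 for SREBF1, -0.46 for ACACA, 0.02 for SREBF2, -0.11 for LSS, -0.03 for FADS1 and -0.01 for FASN. With the letter set as a block in limma, 8 genes were lower (23.5%) and 14 were higher (41.2%), against 20% and 24.9% of all genes. The 6 further higher genes were IDI1, at 0.97 (SE 0.118, adjusted p = 0.000695), FDFT1, at 0.76 (adjusted p = 0.00156), SREBF1, at 0.66 (adjusted p = 0.000284), INSIG2, at 0.61 (adjusted p = 0.0154), LSS, at 0.36 (adjusted p = 0.0483), and HMGCS1, at 0.35 (adjusted p = 0.0242).

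**Figure D4:**
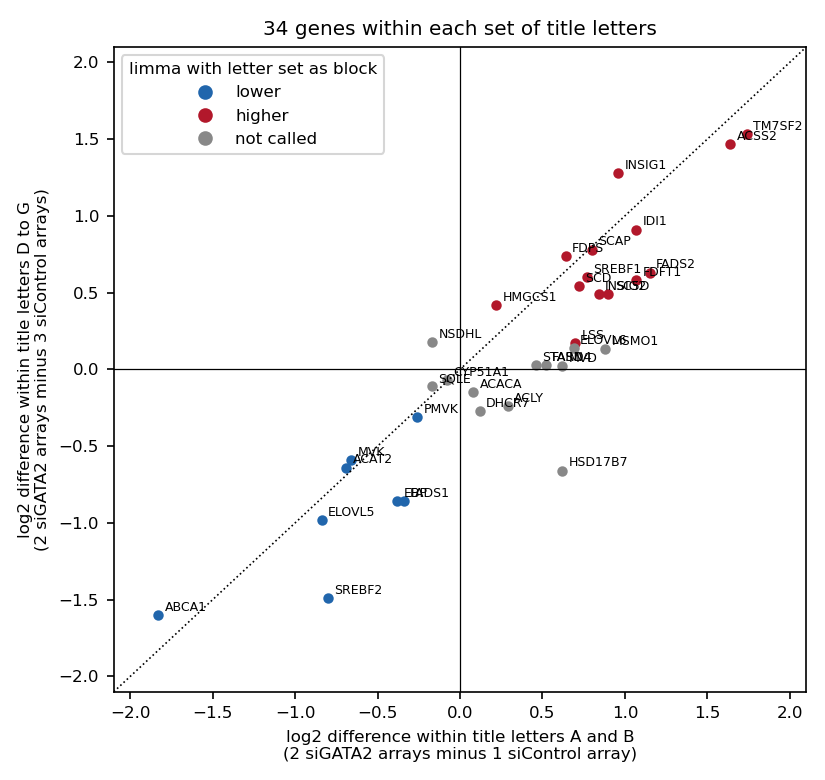
Log2 difference between siGATA2 and siControl arrays within title letters A and B (x axis, 2 arrays against 1) and within D to G (y axis, 2 arrays against 3), with 1 point for each of the 34 genes, coloured by the call with letter set as block, and a dotted line at equal differences. The points of 29 genes have the same sign on both axes, and HSD17B7 lies farthest from the line.

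The calls also depended on the scaling. Over 7 E1A spike-in probes the mean log2 signal of siControl array 1 was 11.13, while the other 7 arrays lay at 13.45 to 13.83, so scaling to these probes raised that 1 control array against all others. With all 8 arrays scaled in this way, the median of all genes moved by -0.52, to -0.43, and 93.2% of all calls were lower, against 53.5% after quantile normalization. Of all genes, 6.59% were then called lower and 0.478% higher, and of the 34 genes ABCA1 and SREBF2 were lower and 0 higher. Without siControl array 1, an alternative added after the data were seen, the same scaling left the median of all genes at -0.01, and 71% of all calls were lower. It then gave 9 lower and 3 higher of the 34 genes, against 15.1% and 6.15% of all genes. The higher genes were TM7SF2, at 1.36 (adjusted p = 0.00089 from limma), ACSS2, at 0.97 (adjusted p = 0.0173 from limma), and SCAP, at 0.64 (adjusted p = 0.0386 from limma). INSIG1, at 0.73, FDPS, at 0.23, SCD, at 0.33, FADS2, at 0.47, and SC5D, at 0.46, kept a positive sign without a call. ABCA1, at -1.63, and SREBF2, at -1.44, were lower.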

How the data were processed

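LNCaP RNA from 4 siGATA2 and 4 siControl samples was measured on 1-colour Agilent arrays, all on 1 slide and in 1 scan. The groups were not balanced over the slide rows. Arrays 1 to 3 of siGATA2 and array 4 of siControl lay in row 1, the others in row 2. With slide row as a block, 6 of the 34 genes were lower and 7 higher, against 10.4% and 7.57% of all genes. Sample labels gave the groups. The authors deposited spot intensity from Feature Extraction 11.0.1.1, per the labels, and a matrix of log2 values, which served as an alternative. Each of its columns had a median of 7.45 and correlated best with its own array (r of 0.982 to 0.999 across probes). The array files name another design than the methods do.

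Outlier spots were left out, log2 processed signals were averaged per probe, and the 8 arrays were quantile-normalized with limma 3.58.1 in R 4.3.3. A RefSeq table (GRCh38.p14) named 26360 of 42405 probes. A gene was represented by its brightest probe, after removal of 1914 unannotated probes and of those whose log2 mean was below 3. Groups were compared with lmFit and eBayes, with Benjamini-Hochberg adjustment over 28850 genes, in place of the methods' t-test. The test was checked on simulated data.

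The genes and lists were chosen with earlier results of these data known, so counts over a list are a description, with no test of the list. All 34 genes are named, with the 3 largest falls and rises among called genes of the wider pathway and, after their values were seen, some of their relatives. Arrays have no read depth, and their number limits the precision. Alternatives were other scalings (75th percentile, E1A spike-ins), normexp with an offset of 50, the deposited log2 values, other probe filters and gene summaries, the methods' t-test, an intensity trend, array weights, blocks, left-out arrays and a 2-fold threshold.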

Additional observations from a re-analysis of the deposited data

Results flagged for a closer look

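In 7 of 68 groups of 4 arrays tested over the 34 genes, 1 array stood apart from the other 3 by a gap, as a share of the group's whole range, above the critical value of Dixon's test, and each time it was siControl array 1. Chance gives about 1 in 20 groups. The genes of a group share their arrays, so the 7 are not independent. The shares were 0.8893 for FDPS (14.96 against 15.13 to 15.15), 0.8455 for FDFT1 (13.93 against 14.72 to 14.86), 0.951 for HSD17B7 (9.85 against 11.04 to 11.10), 0.8904 for EBP (14.93 against 15.20 to 15.23) and 0.8732 for ACSS2 (11.15 against 11.74 to 11.82), where siControl array 1 was the lowest. It was the highest for SREBF1, at 0.9483 (17.11 against 16.39 to 16.43), and ABCA1, at 0.8293 (9.80 against 9.45 to 9.51). It is the only siControl array with a title letter of the A and B set, its 7 E1A spike-in probes had a mean log2 signal of 11.13, against 13.45 to 13.83 on the other arrays, and its negative controls had a standard deviation of 4.49 intensity units, above 1.78 to 2.4 on 6 other arrays and below 7.26 on siControl array 3.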

How the results depend on the processing

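Of the 34 genes, 5 kept their direction and side of the threshold in all 24 other settings (SQLE, CYP51A1, ACLY, SREBF2 and ABCA1), the last 2 as called genes. Of the 16 called genes, 14 lost the call with their direction kept in at least 1 setting, 8 uncalled genes gained it in at least 1, and 13 genes reversed in at least 1.

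With E1A spike-in scaling, the counts were 2 lower and 0 higher for the 34 genes (6.59% and 0.478% of all genes), 0 and 0 for each branch, and the branch medians were -0.56 and -0.48, where all genes were at -0.43. On siControl array 1 the E1A mean was 11.13, against 13.45 to 13.83 on the other arrays. Without that array, E1A scaling gave 9 lower and 3 higher (15.1% and 6.15% of all genes). It gave 5 and 1 in the sterol branch and 2 and 1 in the fatty acid branch. The branch medians were still negative, at -0.30 and -0.16, where all genes were at -0.01. A 2-fold threshold gave 2 lower and 3 higher for all 34 (7.13% and 4.52% of all genes). It gave 0 and 1 for the sterol branch, and 0 and 1 for the fatty acid branch. The letter block gave 14 higher (24.9% of all genes), 7 of them in the sterol branch, and GATA2 at 0.47 (adjusted p = 0.0261 from limma). Without the A and B arrays the sterol branch had 6 lower and 5 higher genes (19.5% and 23.9% of all genes) and the fatty acid median was 0.03. With array weights the sterol branch had 5 lower and 5 higher genes (19.1% and 20.6% of all genes). With slide row as a block, and without siControl replicates 1 and 3 together, the fatty acid branch had 1 lower gene. Of all genes, 10.4% and 12.9% were then lower. Leaving out 1 array at a time gave 1 to 2 lower fatty acid genes, against 11.2% to 15.5% of all genes. FADS1 was the gene lost on leaving out siGATA2 array 3 or 4 or any siControl array. The sterol median was then -0.04 to 0.13, negative without siControl array 1. It was -0.07 without siControl arrays 1 and 3.

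With E1A scaling the median of all genes moved by -0.52, but the move was not the same for each gene. SC5D went from 0.58 to 0.1 and FDPS from 0.65 to -0.11. Genes that turned from positive to negative were HMGCS1 (-0.43), MVD (-0.41), FDPS (-0.11), FDFT1 (-0.08), LSS (-0.23) and MSMO1 (-0.39). NSDHL (-0.69), ACACA (-0.68), FASN (-0.48), SCD (-0.03), ELOVL6 (-0.38) and INSIG2 (-0.08) turned negative as well. Without siControl array 1, E1A scaling gave HMGCS1 -0.18, MVD -0.12, MSMO1 -0.28, NSDHL -0.31, ACACA -0.16, FASN -0.08 and ELOVL6 -0.16. HMGCS1 was -0.04 without siControl arrays 1 and 3. MSMO1 was -0.01 with array weights, between -0.13 and 0.34 on leaving out 1 array, negative without siControl array 1, and -0.23 without arrays 1 and 3. NSDHL was -0.08 with 75th percentile scaling and between -0.06 and 0.09 on leaving out 1 array, negative without siGATA2 array 3 (-0.03) or 4 (-0.06) or siControl array 4 (-0.01). ACACA was -0.07 with 75th percentile scaling, between -0.06 and 0.21 on leaving out 1 array, negative without siGATA2 array 1 (-0.06) or 2 (-0.01), -0.06 with the letter block and -0.15 without the A and B arrays. STARD4 was 0.05 with 75th percentile scaling, 0.03 with slide row as a block, between -0.28 and 0.16 on leaving out 1 array, positive without siGATA2 array 1 (0.04) or 2 (0.14) or siControl array 2 (0.16) or 4 (0.10), 0.19 with the letter block and 0.03 without the A and B arrays. The cause was not tested.

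Adding the replicate number as a replicate block left 7 lower and 8 higher genes, where 12.9% and 11.7% of all genes were called. Same-numbered arrays deviated together with correlations of 0.54, -0.31, 0.17 and 0.22, so the numbers were not taken to pair the arrays. A block by slide or scan was not run, as there was 1 of each. The signal over background was lowest on siControl arrays 3 and 1, which limits dim probes there.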

Other observations

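Long-chain acyl-CoA synthetases, which activate fatty acids for lipid synthesis, also had opposite signs. ACSL3 had a log2 fold change of 1.13 (SE 0.106, adjusted p = 0.000183 from limma), and all 4 of its siGATA2 values, 12.95 to 13.18, lay above its siControl values of 11.83 to 12.01. ACSL4 had -1.04 (SE 0.185, adjusted p = 0.00429 from limma), a call that was lost with 75th percentile scaling and with E1A scaling, with or without siControl array 1. Its probe was dim, with a mean of 4.38 on the siGATA2 and 5.42 on the siControl arrays. That probe was well above background on all 4 siGATA2 arrays and on 3 of 4 siControl arrays. ACSL1 and ACSL5 were not called, at 0.18 and 0.

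The electron carrier CYB5A, which serves the desaturases and sterol oxidases, was lower, at -0.78 (SE 0.0956, adjusted p = 0.000656 from limma). SOAT1, which esterifies cholesterol for storage, was lower as well, at -0.59 (SE 0.106, adjusted p = 0.00441 from limma). MBTPS2, the protease that makes the last cut in releasing SREBPs, was higher, at 0.70 (SE 0.141, adjusted p = 0.00772 from limma), while MBTPS1, which makes the first, was not called, at 0.06. The calls of CYB5A, SOAT1 and MBTPS2 were lost with E1A scaling of all 8 arrays and kept with that scaling without siControl array 1, at -1.14, -0.78 and 0.68.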
